A study of Homo sapiens with 6 samples.

Results

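The genes described here are 35 chaperones, folding enzymes and stress regulators of K562 cells: 22 that act in the endoplasmic reticulum (ER) or in its stress response, 11 of the cytosolic heat shock system and 2 mitochondrial chaperones. They were chosen by name, from a list of symbols, and each of the 35 matched 1 Ensembl identifier among the 61661 rows of the count table. K562 is a human chronic myeloid leukemia line in blast phase. The libraries were made from 3 stable lines grown in RPMI1640 with serum and harvested in logarithmic growth: shCTR, labelled WT and the control, shMETTL3, with METTL3 knocked down by short hairpin RNA, and shMETTL14, with METTL14 knocked down in the same way. The study describes its vector for METTL3 as a lentivirus with a U6 promoter, GFP and puromycin resistance, and its control as the same vector with a nonsense insert, so control and METTL3 lines share the vector and its GFP. The METTL14 vector is not described in the sources used here. METTL3 and METTL14 form the core of the enzyme that writes N6-methyladenosine (m6A) on messenger RNA. Each group had 2 libraries of poly(A)-selected RNA. No source states whether the 2 came from separate cultures, so the p-values measure the spread between these libraries, which may be technical.

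The ER folds secreted and membrane proteins with the help of the HSP70 protein HSPA5 (BiP), the HSP90 protein HSP90B1, lectin chaperones and protein disulfide isomerases. When unfolded protein accumulates there, the sensors ERN1 (IRE1), EIF2AK3 (PERK) and ATF6 switch on the unfolded protein response, which raises the genes of ER chaperones and of ER-associated degradation. The cytosol has a separate response: heat or other damage to proteins frees HSF1, which binds heat shock elements and raises HSPA1A, HSPA1B, DNAJB1 and other chaperones within minutes to hours. Constitutive chaperones such as HSPA8 and HSP90AB1 are made at high levels without stress, and HSPD1 and HSPE1 fold proteins in the mitochondrial matrix.

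The sequence elements of both responses are shown because the 2 responses act through different elements. The levels described below were known when these elements were chosen, and the part of the elements in those levels was not tested. The 250 bases before each RefSeq gene start on GRCh38.p14 were searched on both strands for the heat shock element with 2 units, GAANNTTC or TTCNNGAA, and for the ER stress elements ERSE, CCAAT and CCACG with 9 bases between them, and ERSE-II, ATTGG and CCACG with 1 base between them. The 2-unit heat shock element was in the windows of 8 of 10 cytosolic members, of 1 of 21 ER members (CANX) and of HSPD1, against 11.58% of 35116 windows of all genes. The ERSE was in 7 of 21 ER members (CALR, CANX, CRELD2, HSP90B1, HSPA5, PDIA6 and XBP1) and ERSE-II in 3 (HERPUD1, HYOU1 and SDF2L1), against 0.07404% and 0.05126% of all windows, and neither was in a cytosolic member. A member was counted if any of its windows held the element, while the share over all genes is per window, so the measures differ. A match of letters is a description and not a bound site. The pieces below, from the sense strand, hold the heat shock elements of the inducible pair HSPA1A and HSPA1B, of their partner DNAJB1 and of the constitutive HSP90AB1, and then the ER stress elements of HSPA5, HSP90B1 and HERPUD1. Capitals mark the element, which in HSP90AB1 is the 3-unit form.
HSPA1A, chr6:31815407-31815463, plus strand: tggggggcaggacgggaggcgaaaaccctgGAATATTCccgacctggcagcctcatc
HSPA1B, chr6:31827603-31827670, plus strand: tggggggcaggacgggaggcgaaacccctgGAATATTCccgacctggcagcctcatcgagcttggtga
DNAJB1, chr19:14518421-14518474, minus strand: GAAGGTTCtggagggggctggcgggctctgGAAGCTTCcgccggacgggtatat
HSP90AB1, chr6:44247801-44247865, plus strand: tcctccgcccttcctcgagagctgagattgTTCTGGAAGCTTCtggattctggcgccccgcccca
HSPA5, chr9:125241361-125241439, minus strand: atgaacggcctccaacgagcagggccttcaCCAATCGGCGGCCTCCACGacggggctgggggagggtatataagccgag
HSP90B1, chr12:103930212-103930264, plus strand: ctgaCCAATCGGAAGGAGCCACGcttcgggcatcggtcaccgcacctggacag
HERPUD1, chr16:56931995-56932047, plus strand: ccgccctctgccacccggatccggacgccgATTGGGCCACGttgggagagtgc

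Library totals lay between 19292574 and 20115304 counts, and the 35 genes held 1.18% to 1.39% of them. All 35 passed the filter on low counts, with 268 to 58553 counts per gene and library. Levels are given in CPM, each count relative to its library's total after scaling by TMM factors, which set libraries against each other. METTL3 was 90.6 and 90.4 CPM in shCTR, 52.6 and 46.8 CPM in shMETTL3 and 88.2 and 76.5 CPM in shMETTL14. METTL14 was 33.2 and 34.3 CPM in shCTR, 38.3 and 35.4 CPM in shMETTL3 and 19.1 and 20.6 CPM in shMETTL14, so each target was lower in its own line. Of 11 erythroid and leukemic markers of K562, all were detected in each library, among them GATA1 with 4942 to 6032 counts, and their summed level was 2152 to 2394 CPM. Defining markers of T and B cells, monocytes, fibroblasts and epithelium were at or near 0 (CD3E, CD2, MS4A1, CD14, CSF1R, COL1A2 and KRT5, 0 to 3 counts), while LYZ, EPCAM and KRT8 were not, and LYZ was 324 and 310 counts in shMETTL3 against 830 and 840 in shCTR and 1177 and 1273 in shMETTL14. The part of these markers in the results was not tested. In bulk RNA, fewer cells of a type and less RNA per cell cannot be told apart.

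**Figure D1:**
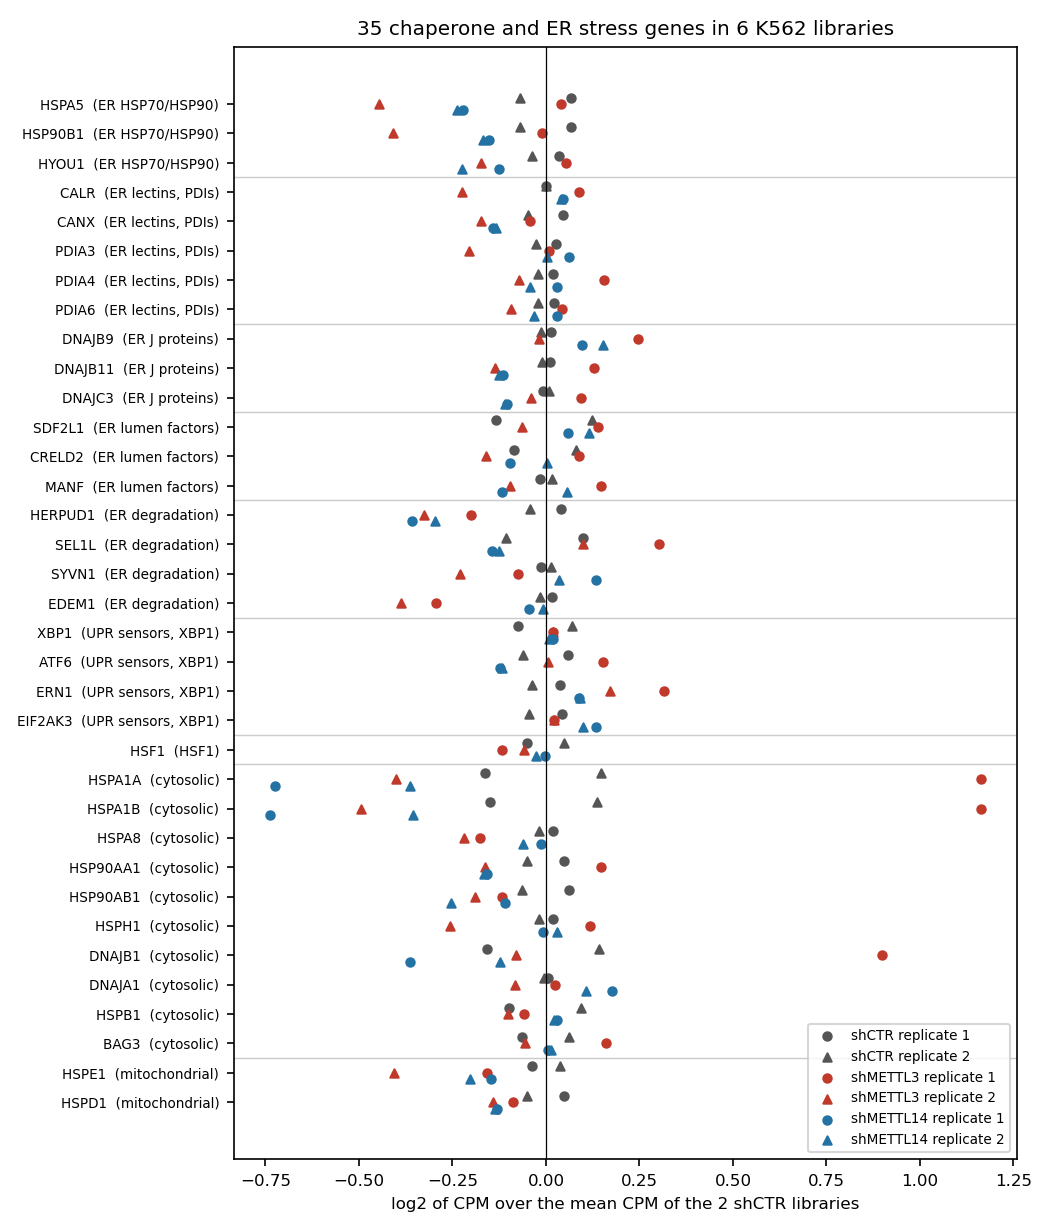
Level of each of the 35 genes in each of the 6 libraries, as log2 of its CPM over the mean of the 2 shCTR libraries (x axis), with genes grouped by role (y axis), colours for the groups and circles and triangles for replicates 1 and 2. Most points lie between -0.25 and 0.25, while HSPA1A, HSPA1B and DNAJB1 lie far to the right in shMETTL3 replicate 1 only.

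The 35 genes span a wide range of levels. Per kilobase of the longest transcript, averaged over the 6 libraries, HSP90AB1, a constitutive cytosolic HSP90, was highest at 986 CPM per kb, followed by SDF2L1, an ER lumen factor, at 441 and HSP90B1 at 400.4 CPM per kb. The sensors EIF2AK3 and ERN1 were lowest, at 3.21 and 6.48 CPM per kb, while the third, ATF6, was at 21.8 CPM per kb. The inducible HSPA1A was at 51.1 CPM per kb, against 354 CPM per kb for its constitutive relative HSPA8.

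In shMETTL3 against shCTR, few of the 35 genes passed the test and the ones that did moved by less than 0.35 on the log2 scale. By the quasi-likelihood test of edgeR, adjusted after Benjamini and Hochberg over all 17686 genes tested, 1 of 35 was higher, against 8.73% of all genes called higher, and 3 of 35 were lower, against 7.73% of all genes called lower. The higher gene was ERN1, the sensor IRE1, and the lower genes were EDEM1 and HERPUD1, both of ER-associated degradation, and HSPA8, the constitutive cytosolic HSP70. The median log2 fold change was -0.01 over the 22 ER members, -0.03 over the 11 cytosolic members and -0.20 over the 2 mitochondrial members, beside 0.00 over all genes tested. In shMETTL14 against shCTR, 0 of 35 were higher, against 3.43% of all genes, and 1 of 35 was lower, against 3.26% of all genes. That gene was again HERPUD1. At an unadjusted p under 0.05, edgeR had 1 member higher there, DNAJA1, and 7 lower. The lower ones were HSPA5, CANX, HERPUD1, HYOU1, HSP90AA1, HSP90AB1 and HSPD1. Of all 17686 genes, 3665 were under that level in either direction. DESeq2 called 0 members higher and 1 lower, HERPUD1, at the adjusted threshold. The medians were -0.03 for ER, -0.04 for cytosolic and -0.15 for mitochondrial members, beside 0.00 over all genes. Both comparisons use the same 2 shCTR libraries.

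**Figure D2:**
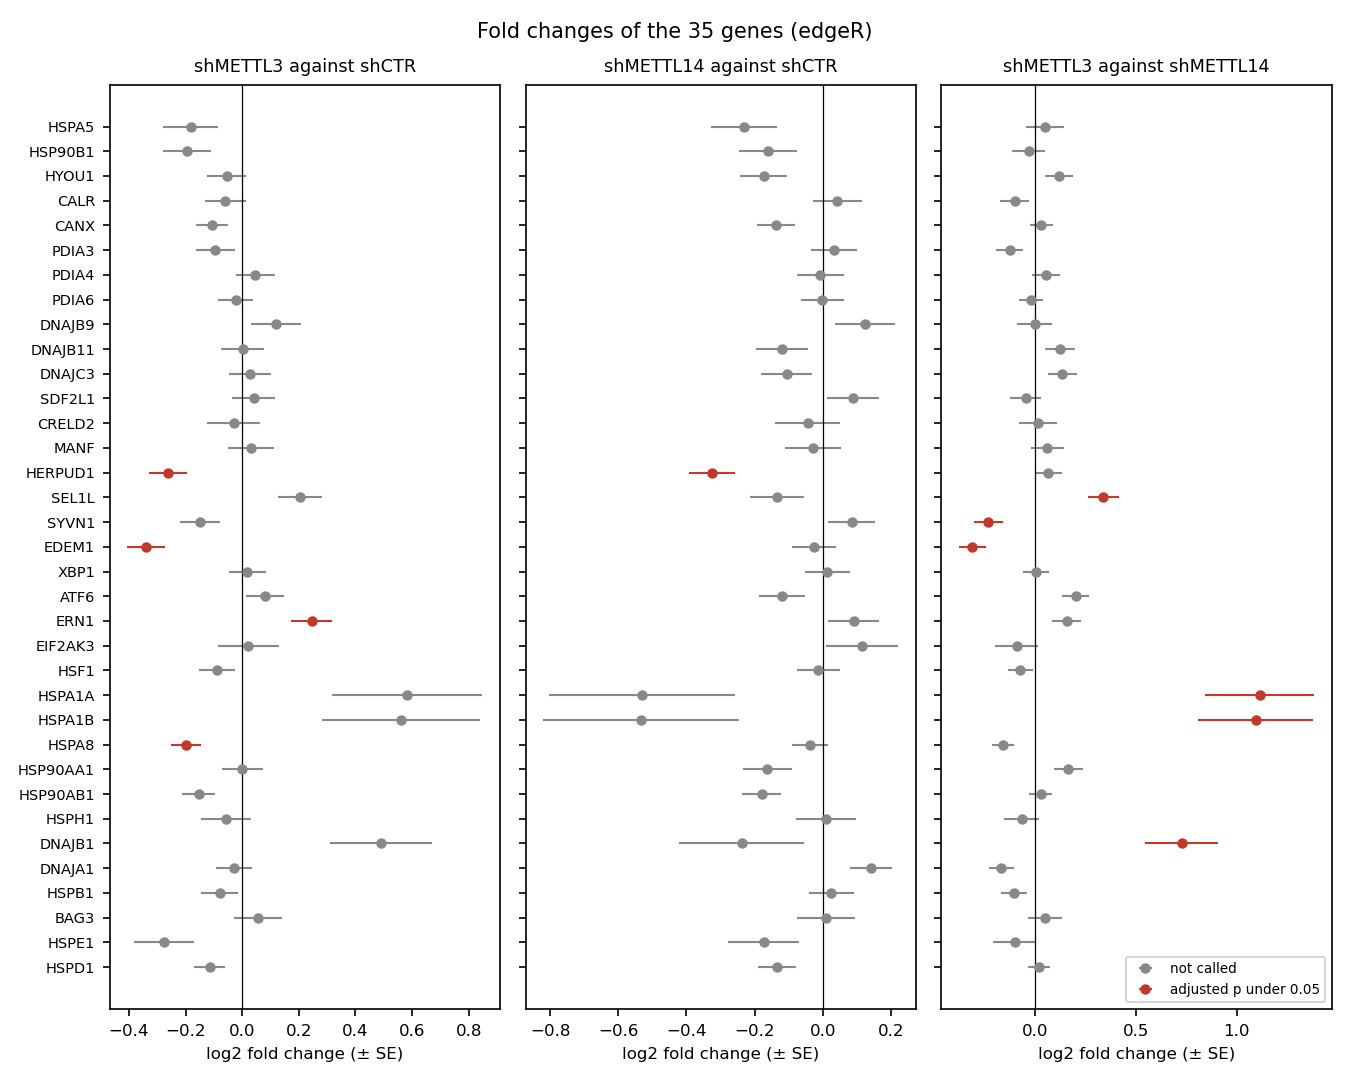
Log2 fold change with its standard error (x axis, a different range in each panel) of each of the 35 genes (y axis) in the 3 comparisons, with genes at an adjusted p under 0.05 in red. HERPUD1 is red in both comparisons with shCTR, EDEM1 in both comparisons of shMETTL3, and the HSPA1A, HSPA1B and DNAJB1 bars are the widest.

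Among the ER degradation genes, HERPUD1 was lower in both knockdown lines. HERPUD1 is an ER membrane protein that organises the retrotranslocation complex and is a classic target of the unfolded protein response. It lies on chromosome 16 from 56932048 to 56944863 in GRCh38. Its level was 120 and 113 CPM in shCTR, 102 and 93.0 CPM in shMETTL3 and 91.0 and 95.0 CPM in shMETTL14. All 4 knockdown libraries lay below both controls. The log2 fold change was -0.26 ± 0.07 (SE, n = 2 per group) in shMETTL3, adjusted p = 0.011 by edgeR, and -0.33 ± 0.07 in shMETTL14, adjusted p = 0.00505 by edgeR. The 2 knockdown lines differed by 0.06 ± 0.07, adjusted p = 0.614 by edgeR, which does not show that they are equal. Without shMETTL3 replicate 2 the value in shMETTL3 was -0.20, adjusted p = 0.21 by edgeR, and without shMETTL14 replicate 1 or 2 that in shMETTL14 was -0.30 or -0.36, adjusted p = 0.14 or 0.051 by edgeR.

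EDEM1, a lectin that extracts misfolded glycoproteins for degradation, was lower in shMETTL3 than in either other line. It lies on chromosome 3 from 5187646 to 5219957. It was 91.6 and 89.6 CPM in shCTR, 73.9 and 69.3 CPM in shMETTL3 and 87.9 and 90.1 CPM in shMETTL14. The shMETTL3 libraries lay below the other 4, which overlapped. The log2 fold change was -0.34 ± 0.07 against shCTR, adjusted p = 0.00146 by edgeR, and -0.31 ± 0.07 against shMETTL14, adjusted p = 0.00306 by edgeR. Without shMETTL3 replicate 2, the adjusted p by edgeR was 0.057 against shCTR and 0.098 against shMETTL14, and without shMETTL14 replicate 2 the latter was 0.065.

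SEL1L and SYVN1 (HRD1) form the membrane core of the main ER ubiquitin ligase, and differed between the knockdown lines in opposite directions. SEL1L was 105 and 91.3 CPM in shCTR, 121 and 105 CPM in shMETTL3 and 89.0 and 90.3 CPM in shMETTL14. It was higher in shMETTL3 than in shMETTL14 by 0.34 ± 0.08, adjusted p = 0.00612 by edgeR, and neither line differed from shCTR past the threshold (0.20 and -0.13, adjusted p = 0.0797 and 0.352 by edgeR). SYVN1 was 79.1 and 80.5 CPM in shCTR, 75.9 and 68.1 CPM in shMETTL3 and 87.6 and 81.7 CPM in shMETTL14. It was lower in shMETTL3 than in shMETTL14 by -0.23 ± 0.07, adjusted p = 0.0345 by edgeR. DESeq2 kept the SEL1L call (adjusted p = 0.00517) and lost that of SYVN1 (adjusted p = 0.0696). The SEL1L call was lost without shMETTL3 replicate 1 and without either shMETTL14 library (adjusted p of 0.066 to 0.16 by edgeR), and that of SYVN1 without shMETTL3 replicate 2 and without either shMETTL14 library (adjusted p of 0.092 to 0.42 by edgeR). With the trend in GC content and length removed, SYVN1 was also called lower in shMETTL3 than in shCTR, by -0.24 (adjusted p = 0.0075 by edgeR), against -0.15 with it left in.

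Of the sensors and their transcription factor, ERN1 was the only member called higher in shMETTL3 than in shCTR. ERN1 was 48.3 and 45.9 CPM in shCTR, 58.6 and 53.1 CPM in shMETTL3 and 50.1 and 50.2 CPM in shMETTL14. The groups did not overlap, and the log2 fold change in shMETTL3 was 0.24 ± 0.07, adjusted p = 0.0269 by edgeR. The adjusted p was 0.078 by DESeq2, and by edgeR it was 0.051 to 0.28 without each library except shCTR replicate 1, where it was 0.028. With the trend in GC content and length removed, ERN1 was at 0.16, adjusted p = 0.082 by edgeR, and the 1 member called higher was SEL1L (0.23, adjusted p = 0.0068 by edgeR). XBP1, whose messenger RNA ERN1 splices, was 117 and 129 CPM in shCTR, 125 and 125 CPM in shMETTL3 and 125 and 124 CPM in shMETTL14. Its 4 knockdown values lay between the 2 controls, with log2 fold changes of 0.02 ± 0.07 and 0.01 ± 0.07. Gene counts do not tell the spliced form of XBP1 from the unspliced. ATF6 and EIF2AK3 did not pass the test in any of the 3 comparisons in the main edgeR fit (log2 fold changes of 0.08 and 0.02 in shMETTL3, -0.12 and 0.12 in shMETTL14). Between the knockdown lines, ATF6 was higher in shMETTL3 by 0.20 ± 0.07, adjusted p = 0.0549 by edgeR. There it was called higher with scaling by library size alone and with only these 2 groups fitted. The same held with a block for replicate number and with the trend in GC content and length removed. DESeq2 did not call it.

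HSPA5 and HSP90B1, the main ER chaperones, did not pass the test in either knockdown in the main edgeR fit. Their 2 shMETTL3 libraries differed from each other. HSPA5, the ER HSP70, was 1102 and 1002 CPM in shCTR, 1083 and 772 CPM in shMETTL3 and 901 and 892 CPM in shMETTL14. HSP90B1, the ER HSP90, was 1378 and 1253 CPM in shCTR, 1307 and 992 CPM in shMETTL3 and 1183 and 1169.9 CPM in shMETTL14. Both genes lay between the controls in shMETTL3 replicate 1 and below the other 5 libraries in replicate 2. The log2 fold changes in shMETTL3 were -0.18 ± 0.10 for HSPA5 and -0.20 ± 0.08 for HSP90B1, adjusted p = 0.211 and 0.122 by edgeR. In shMETTL14 they were -0.23 ± 0.10 and -0.16 ± 0.08, adjusted p = 0.171 and 0.29 by edgeR, and the 2 shMETTL14 libraries lay below both controls for each gene. With a block for replicate number, HSP90B1 was called lower in shMETTL3 and HSPA5 was called lower in shMETTL14. Without shMETTL3 replicate 1 both were called lower in shMETTL3, HSPA5 by -0.45 (adjusted p = 0.0017 by edgeR) and HSP90B1 by -0.41 (adjusted p = 0.0034 by edgeR), and without replicate 2 neither was (0.04 and -0.01). In shMETTL14, HSPA5 was called lower with only shMETTL14 and shCTR fitted (-0.23, adjusted p = 0.040 by edgeR) and without shMETTL3 replicate 1 or 2 (adjusted p = 0.043 and 0.040 by edgeR), and was not called by DESeq2 (adjusted p = 0.62).

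The remaining ER members did not pass the test in any of the 3 comparisons in the main edgeR fit. The lectins and disulfide isomerases CALR, CANX, PDIA3, PDIA4 and PDIA6 had log2 fold changes of -0.11 to 0.05 in shMETTL3 and of -0.14 to 0.04 in shMETTL14. The J proteins DNAJB9, DNAJB11 and DNAJC3, which hand clients to HSPA5, had 0.00 to 0.12 and -0.12 to 0.12. The lumen factors SDF2L1, CRELD2 and MANF had -0.03 to 0.04 and -0.04 to 0.09. HYOU1, an ER HSP110 that exchanges the nucleotide of HSPA5, had -0.05 and -0.17. It was called lower in shMETTL14 with a block for replicate number and with the trend in GC content and length removed.

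In the cytosol, the inducible genes HSPA1A, HSPA1B and DNAJB1 were set apart by 1 library. HSPA1A was 107 and 132 CPM in shCTR, 267 and 90.4 CPM in shMETTL3 and 72.3 and 92.8 CPM in shMETTL14. HSPA1B was 105 and 128 CPM in shCTR, 261 and 82.7 CPM in shMETTL3 and 69.8 and 91.1 CPM in shMETTL14. DNAJB1, the J protein that activates HSP70, was 86.1 and 106 CPM in shCTR, 179 and 90.7 CPM in shMETTL3 and 74.6 and 88.2 CPM in shMETTL14. In all 3 genes shMETTL3 replicate 1 was above the other 5 libraries, and shMETTL3 replicate 2 lay below both controls for the HSPA1 pair and between them for DNAJB1. Against shCTR the log2 fold changes in shMETTL3 were 0.58 ± 0.27, 0.56 ± 0.28 and 0.49 ± 0.18, adjusted p = 0.143, 0.183 and 0.0686 by edgeR. They were -0.53 ± 0.27, -0.53 ± 0.29 and -0.24 ± 0.18 in shMETTL14, adjusted p = 0.282, 0.304 and 0.503 by edgeR. HSPA1A and HSPA1B had their shMETTL14 libraries below both controls, and were called lower in shMETTL14 when only these 2 groups were fitted (-0.53 ± 0.10 for each, adjusted p = 0.0023 by edgeR) and when either shMETTL3 library was left out (adjusted p of 0.0033 to 0.0039 by edgeR). The fit over all 6 libraries shares 1 estimate of the spread, which takes in the 2 shMETTL3 libraries. DESeq2 on all 6 did not call them (adjusted p = 0.76 and 0.77).

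Between the knockdown lines, 4 of 35 members were higher in shMETTL3 than in shMETTL14, against 6.65% of all genes, and 2 of 35 were lower, against 5.49% of all genes. The higher genes were SEL1L with HSPA1A (1.12 ± 0.27, adjusted p = 0.00886 by edgeR), HSPA1B (1.09 ± 0.28, adjusted p = 0.0141 by edgeR) and DNAJB1 (0.73 ± 0.18, adjusted p = 0.0106 by edgeR). The lower genes were EDEM1 and SYVN1. For the HSPA1 pair the shMETTL3 and shMETTL14 libraries overlapped. Without shMETTL3 replicate 1 the 3 values were 0.13, 0.04 and 0.16, adjusted p = 0.64, 0.90 and 0.51 by edgeR, and DESeq2 called none of the 3 with all libraries in (adjusted p = 0.33, 0.39 and 0.37). Without shMETTL14 replicate 1 they were 0.94, 0.91 and 0.61, adjusted p = 0.16, 0.20 and 0.18 by edgeR, and without shMETTL14 replicate 2 HSPA1B was at adjusted p = 0.051 by edgeR. Against shCTR, leaving out shMETTL3 replicate 1 turned HSPA1A to -0.40 (adjusted p = 0.059 by edgeR), HSPA1B to -0.49 (adjusted p = 0.022 by edgeR) and DNAJB1 to -0.08 (adjusted p = 0.73 by edgeR). Leaving out replicate 2 instead gave 1.17, 1.17 and 0.90.

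HSPA1A and HSPA1B lie on chromosome 6 at 31815464 to 31817946 and 31827735 to 31830255, and are near-identical copies. Of the 100-base windows of the HSPA1A transcript, 69.9% also occur in another gene's transcript, and of those of HSPA1B, 72.7%, so their counts depend on how the counting split shared reads. The ratio of HSPA1A to HSPA1B counts was 1.02 to 1.09 in the 6 libraries. With the counts of both added together, the log2 fold change was 0.57 in shMETTL3 against shCTR and 1.11 against shMETTL14 (adjusted p = 0.16 and 0.0099 by edgeR).

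**Figure D3:**
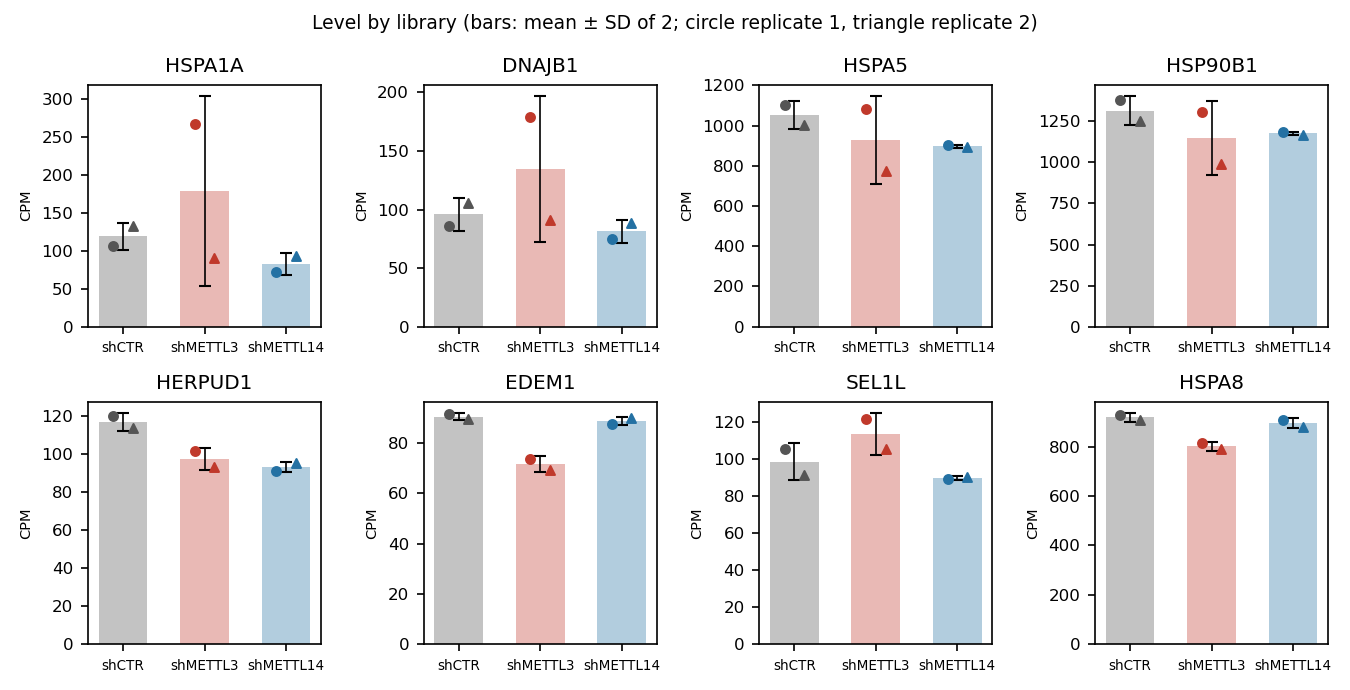
Level in CPM (y axis, from 0) of 8 of the genes in each library by group (x axis), with bars for the mean of 2 libraries, error bars for their SD, circles for replicate 1 and triangles for replicate 2. HSPA1A at 267 and DNAJB1 at 179 CPM stand alone in shMETTL3 replicate 1, while HERPUD1, EDEM1 and HSPA8 have close replicates.

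The difference between the 2 shMETTL3 libraries reached beyond the inducible genes. Among 9931 genes with a mean of at least 200 counts, HSPA1B and HSPA1A had the widest excess of replicate 1 over replicate 2, DNAJB1 was at rank 4 and HSPA5 at rank 14. The log2 ratio of replicate 1 to replicate 2 was 1.66 for HSPA1B, 1.56 for HSPA1A, 0.98 for DNAJB1 and 0.49 for HSPA5. All 22 ER members had a ratio above 0 in shMETTL3, with a median of 0.20, against 15 of 22 in shCTR (median 0.04) and 12 of 22 in shMETTL14 (median 0.00). Of the 11 cytosolic members, 10 were above 0 in shMETTL3, 5 in shCTR and 6 in shMETTL14. XBP1 and EIF2AK3 were the ER members nearest to 0 in shMETTL3, both at 0.00, and HSF1 was at -0.06. The summed level of the 22 ER members was 7018 and 5826 CPM in the 2 shMETTL3 libraries, 7008 and 6702 CPM in shCTR and 6426 and 6373 CPM in shMETTL14, so replicate 1 was level with the higher control and replicate 2 was lowest. Summed cytosolic members without HSPA1A, HSPA1B and DNAJB1 were 5250 and 4834 CPM in shMETTL3 against 5622 and 5320 CPM in shCTR. The SD of the log2 ratio over all 12769 genes with a mean of at least 50 counts was 0.17 in shMETTL3, 0.21 in shCTR and 0.17 in shMETTL14. What set the 2 libraries apart was not tested, and no source labels them as different.

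**Figure D4:**
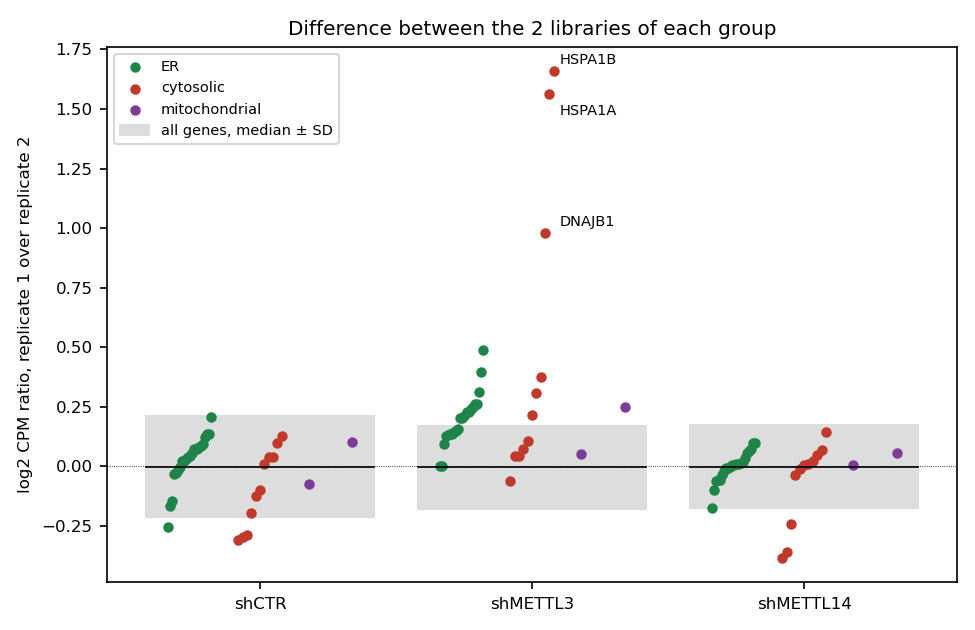
Log2 CPM ratio of replicate 1 to replicate 2 (y axis) for each of the 35 genes within each group (x axis), coloured by compartment, over a grey band for the median ± SD of all genes with a mean of at least 50 counts. In shMETTL3 all 22 ER points are above 0 and HSPA1B, HSPA1A and DNAJB1 reach 1.66, 1.56 and 0.98, while in the other groups the ER points scatter on both sides.

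The other cytosolic members, constitutive or not, moved less. HSPA8 was 931 and 907 CPM in shCTR, 813 and 789 CPM in shMETTL3 and 911 and 881 CPM in shMETTL14. Both shMETTL3 libraries were below the other 4, and the log2 fold change against shCTR was -0.20 ± 0.05, adjusted p = 0.0146 by edgeR. With scaling by library size alone it was -0.14, adjusted p = 0.072 by edgeR, and without either shMETTL3 library it was no longer called (adjusted p = 0.085 and 0.21 by edgeR). Between the knockdown lines, HSPA8 was lower in shMETTL3 by -0.16 ± 0.05, adjusted p = 0.054 by edgeR. There it was called lower by DESeq2 and with only these 2 groups fitted. The same held with a block for replicate number and with the trend in GC content and length removed. HSP90AA1 was 1089.5 and 1017 CPM in shCTR, 1167 and 942 CPM in shMETTL3 and 943 and 939 CPM in shMETTL14, and was not called (0.00 ± 0.07 and -0.16 ± 0.07). HSP90AB1 was at -0.15 ± 0.06 and -0.18 ± 0.06 against the same 2 controls, and was not called in the main fit (adjusted p = 0.0781 and 0.072 by edgeR). It was called lower in both knockdown lines with a block for replicate number. In shMETTL14 it was also called lower with the trend in GC content and length removed. DNAJA1, HSPB1, HSPH1 and BAG3 were not called in the main fit, with log2 fold changes of -0.08 to 0.06 in shMETTL3 and 0.01 to 0.14 in shMETTL14. DNAJA1 was called higher in shMETTL14 than in shCTR with the trend in GC content and length removed. With only the 2 knockdown lines fitted, it was called lower in shMETTL3 than in shMETTL14. HSF1, the factor of the heat shock response, was 123 and 132 CPM in shCTR, 118 and 123 CPM in shMETTL3 and 127 and 125 CPM in shMETTL14, and was not called (-0.09 ± 0.06 and -0.01 ± 0.06). With the trend in GC content and length removed, HSF1 was called lower in shMETTL3, by -0.27 against shCTR and -0.18 against shMETTL14 (adjusted p = 0.00076 and 0.014 by edgeR), and so was HSPB1, by -0.20 and -0.17 (adjusted p = 0.0062 and 0.019 by edgeR).

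The mitochondrial pair was below the controls in all 4 knockdown libraries without passing the test in the main edgeR fit. Both lines were set against the same shCTR libraries, and the share of all genes with this pattern was not measured. HSPD1 was 751 and 700.0 CPM in shCTR, 682 and 657 CPM in shMETTL3 and 663 and 660.1 CPM in shMETTL14, log2 fold changes of -0.12 ± 0.06 and -0.13 ± 0.06. HSPE1 was 20.2 and 21.3 CPM in shCTR, 18.6 and 15.7 CPM in shMETTL3 and 18.8 and 18.03 CPM in shMETTL14, log2 fold changes of -0.28 ± 0.11 and -0.17 ± 0.11. With each library left out in turn, HSPD1 lay between -0.17 and -0.07 in shMETTL3 and between -0.18 and -0.08 in shMETTL14. HSPE1 lay between -0.40 and -0.16 in shMETTL3 and between -0.21 and -0.14 in shMETTL14. HSPE1 shares 17.0% of its windows with other genes, so its counts depend on how the counting treated shared reads. The size of that effect was not measured.

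Around the 35 genes, a list of 114 other chaperones and folding factors was examined, of which 107 were tested. In shMETTL3 against shCTR 19 of 107 (17.8%) were lower and 2 (1.87%) higher, against 7.73% and 8.73% of all genes, and in shMETTL14 9 (8.41%) were lower and 1 (0.935%) higher, against 3.26% and 3.43% of all genes. Among the cytosolic genes of the list, 14 of 41 (34.1%) were called lower in shMETTL3 and 5 of 41 (12.2%) in shMETTL14, beside the same 7.73% and 3.26% of all genes, with medians of -0.15 and -0.09 beside 0.00 over all genes. With scaling by library size alone, the 19 lower became 7, while genes called lower over the whole table went from 1368 to 855. Without either shMETTL3 library, fewer were called lower, both in this list and over all genes. Among HSP90 and HSP70 cochaperones, FKBP4 was 111 and 112 CPM in shCTR and 89.2 and 78.1 CPM in shMETTL3, a log2 fold change of -0.42 ± 0.07, adjusted p = 0.000375 by edgeR. ST13, which binds HSP70, was 369 and 361 CPM in shCTR and 282 and 281 CPM in shMETTL3, -0.37 ± 0.06, adjusted p = 0.000128 by edgeR. CHORDC1, an HSP90 partner, was 88.0 and 82.3 CPM in shCTR and 72.6 and 52.8 CPM in shMETTL3, -0.44 ± 0.10, adjusted p = 0.00416 by edgeR, and was not called by DESeq2 (adjusted p = 0.10) or without shMETTL3 replicate 2.

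The CCT ring, which folds actin and tubulin, and prefoldin, which delivers clients to it, had fold changes below 0 in both lines, of which some passed the test. Of 8 CCT subunits, 4 were called lower in shMETTL3 and 2 in shMETTL14, and all 8 had a log2 fold change below 0 in both, with medians of -0.20 and -0.13. Of all genes, 7.73% and 3.26% were called lower and 49.5% and 50.03% had a value below 0. CCT8 had the lowest values, -0.27 ± 0.05 and -0.25 ± 0.05, adjusted p = 0.00198 and 0.00697 by edgeR, and were at adjusted p = 0.072 without shMETTL3 replicate 2 and at 0.068 and 0.075 without shMETTL14 replicate 1 and 2. Of 6 prefoldin subunits, 4 were called lower in shMETTL3 and 2 in shMETTL14. PFDN2 fell by 0.35 on the log2 scale and PFDN4 by 0.29 in shMETTL14, adjusted p = 0.00356 and 0.0305 by edgeR, and neither was called without either shMETTL14 library (adjusted p of 0.051 to 0.42 by edgeR). PFDN4 was also lost without shCTR replicate 2 or either shMETTL3 library (0.053 to 0.098) and by DESeq2 (0.065). Of the others, DNAJB6 rose by 0.22 ± 0.06 in shMETTL14, adjusted p = 0.0328 by edgeR, and was not called without shCTR replicate 1 or without any 1 of the 4 knockdown libraries (adjusted p of 0.072 to 0.28 by edgeR).

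**Figure D5:**
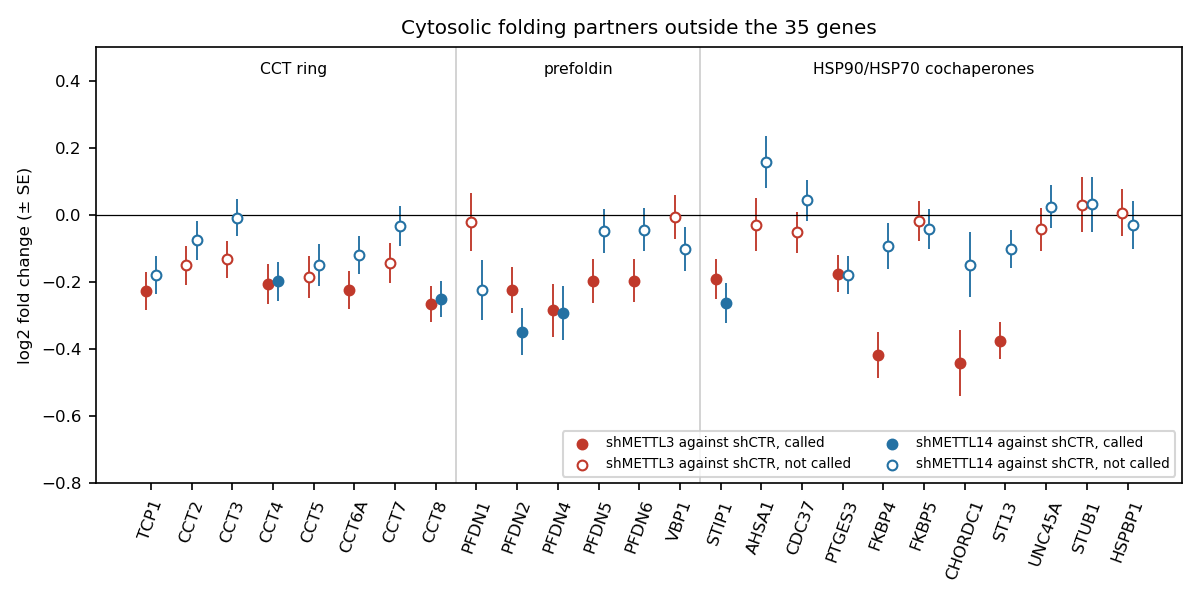
Log2 fold change with its standard error (y axis) of the CCT subunits, prefoldin subunits and HSP90 and HSP70 cochaperones (x axis) in each knockdown line against shCTR, filled where the adjusted p was under 0.05. The CCT and prefoldin points lie below 0 in both lines, and FKBP4, ST13 and CHORDC1 are lowest in shMETTL3.

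Outside the cytosol, CALU, an ER calcium-binding protein, had the largest change of the list. It was 301 and 289 CPM in shCTR, 315 and 291 CPM in shMETTL3 and 163 and 160.1 CPM in shMETTL14. The shMETTL14 libraries stood apart from the other 4, with -0.87 ± 0.06 against shCTR, adjusted p = 4.51e-08 by edgeR, and shMETTL3 was higher than shMETTL14 by 0.90 ± 0.06, adjusted p = 5.42e-09 by edgeR. MBTPS2, a protease that releases ATF6 from the membrane, rose by 0.32 ± 0.08 in shMETTL3 (adjusted p = 0.00982 by edgeR), and DNAJB12, an ER membrane J protein, by 0.25 ± 0.08 (adjusted p = 0.0411 by edgeR). Without shMETTL3 replicate 1 they were at adjusted p = 0.11 and 0.054 by edgeR, and DNAJB12 was at 0.076 to 0.40 without shMETTL3 replicate 2, shCTR replicate 1 or either shMETTL14 library. MBTPS1, the protease that cuts ATF6 first, was lower in shMETTL3 than in shMETTL14 by -0.28 ± 0.06 (adjusted p = 0.00407 by edgeR). FKBP4 and ST13 were lower in that comparison too, by -0.33 ± 0.07 and -0.27 ± 0.06 (adjusted p = 0.00348 and 0.00246 by edgeR). The mitochondrial HSP70 HSPA9 and its exchange factor GRPEL2 were higher in shMETTL3 than in shMETTL14, by 0.34 ± 0.06 and 0.29 ± 0.07 (adjusted p = 0.00049 and 0.00834 by edgeR). Without shMETTL3 replicate 2, the calls of MBTPS1, FKBP4, ST13 and GRPEL2 were lost (adjusted p of 0.057 to 0.15 by edgeR), while HSPA9 stayed called without each library, as was CALU. Lost too were those of MBTPS1 and GRPEL2 without shMETTL14 replicate 1 (0.070 and 0.19) and that of FKBP4 without shMETTL14 replicate 2 (0.061).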

How the data were processed

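RNA-seq gene counts of 6 K562 libraries, 2 each of shCTR, shMETTL3 and shMETTL14, were analysed. The authors deposited raw read counts per gene, made per the submitters' notes with HTSeq 0.6.1 on hg38, and the aligner, annotation and strand setting are not given in the sources used here. Of 61661 rows, 986 had identifiers outside the annotation. Members and lists were chosen with earlier results of these data known. Named genes were members called in at least 1 comparison, 10 members fixed by name, and, per comparison, the 3 largest called rises and falls among other chaperones with at least 10 counts in each library compared; other CCT and prefoldin values were chosen after they were seen. Counts were filtered (filterByExpr, minimum 10), scaled by TMM and fitted over all 6 libraries with edgeR 4.0.16 (quasi-likelihood) in R 4.3.3, and p-values were adjusted by Benjamini-Hochberg over 17686 genes with a threshold of 0.05. The script was tested on simulated data. DESeq2 1.42.0, its size factors, library size alone, no filter, compared groups only, a replicate block, removal of the trend with GC content and length (mgcv 1.9.3), each library left out and the HSPA1 pair summed were the alternatives. Positions, length and GC came from GENCODE 29 on GRCh38, promoters from RefSeq GRCh38.p14. Totals of 19292574 to 20115304 counts limit precision by counting error, to which the spread between libraries adds.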

Additional observations from a re-analysis of the deposited data

How the results depend on the processing

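Of 1953 alternative fits of 150 gene fold changes, 1684 kept their direction and their side of the threshold, 102 kept their direction and were no longer called, and 69 kept it and became called. In 98 the sign changed: 0 of these were called in the report, and 1 was called after the change, HSPA1B in shMETTL3 against shCTR at -0.49 without shMETTL3 replicate 1 (range over libraries left out, -0.49 to 1.17). Members higher and lower in shMETTL3 against shCTR were 1 and 3. The higher count became 0 with DESeq2, without the filter and with the compared groups only, and 3 with library size alone, and the lower count became 6 with the GC and length trend removed. In shMETTL14, higher members became 1 with the GC and length trend removed, and lower members, 1 in the report, became 3 there and 4 with the compared groups only. Between the knockdowns, higher members fell from 4 to 1 with DESeq2, and lower members, 2 in the report, became 1 with library size alone and without the filter, 4 with the compared groups only and 5 with the GC and length trend removed. For the other chaperones in shMETTL3, higher counts of 2 became 1 with DESeq2, without the filter and with the compared groups only, 8 with library size alone and 6 with the trend removed, and lower counts of 19 became 7 with library size alone, 12 without the filter and 11 with the compared groups only. In shMETTL14 the 1 higher became 3 with library size alone, 0 without the filter and with the compared groups only, and 5 with the trend removed, and the 9 lower became 5 without the filter. Between the knockdowns they became 12 higher and 14 lower with the trend removed, from 6 and 8. Library size alone moved the median of all genes in shMETTL3 to 0.06. Calls over all genes changed with the settings too. In shMETTL3, 1544 higher and 1368 lower became 2161 and 855 with library size alone and 1634 and 1890 with the trend removed. They were 875 and 1010 with DESeq2, 1135 and 1050 of 37080 genes without the filter and 1320 and 1087 with the compared groups only. With the trend removed, 607 and 577 in shMETTL14 became 816 and 844, and 1177 and 971 between the knockdowns became 1488 and 1598.

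Leaving out each library in turn gave, for members, 0 to 3 higher and 0 to 5 lower in shMETTL3, 0 to 0 higher and 0 to 4 lower in shMETTL14, and 0 to 6 higher and 0 to 4 lower between the knockdowns. For the other chaperones it gave 0 to 6 and 2 to 20, 0 to 2 and 1 to 13, and 2 to 9 and 0 to 11. A lone library was assumed to vary like the other groups, and calls over all genes changed in these fits too. Without shMETTL14 replicate 2 no member was called in shMETTL14, and without shMETTL3 replicate 1 no member was higher in either shMETTL3 comparison.

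Deviations of same-numbered libraries from their group means correlated at 0.06, 0.01 and -0.02 over all genes tested. These values show no pairing over all genes. They cannot decide whether same-numbered libraries were handled together, since a shared effect on few genes would not show. With the replicate block, members were 2 higher and 5 lower in shMETTL3, 0 and 4 in shMETTL14, and 5 and 3 between the knockdowns, and other chaperones higher in shMETTL14 were 2. Over all genes, calls higher and lower in shMETTL3 went from 1544 and 1368 to 1690 and 1574 with the block. The cause of these changes was not tested.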
